A study of Mus musculus with 10 samples.

Results

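Chromatin accessibility with cisplatin was compared with that of untreated cells through 2 deposited peak lists, 1 of cisplatin-treated cells (Cispl) and 1 of untreated cells (Ctrl). A region was counted as gained when it was called in the Cispl list and overlapped no region of the Ctrl list, and as lost in the mirror case. By this rule 74404 regions changed, of 180091 merged regions of both lists and of 211096 merged regions of the 5 lists of the study. Of these, 66015 were gained and 8389 were lost. All values below use the strong regions, those with a q-value of at most 0.01, unless stated otherwise. These were 64071 gained regions, or 37.3% of the 171785 strong Cispl regions, and 6971 lost regions, or 5.90% of the 118154 strong Ctrl regions. The other 107714 strong Cispl regions overlapped a control region and were called kept.

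The cells were Myc-CaP, a prostate cancer line of FVB/NJ mice that is driven by a Myc transgene in the prostate epithelium. ATAC-seq was run after 48 h with 2 µM cisplatin or with no drug, on 2 libraries per group, and the other 3 groups of the study received 2 µM oxaliplatin (Oxali), 1000 pg per ml interferon-γ (IFNγ) or both for the same time. The libraries of a group were pooled before peaks were called, so each list is 1 pooled measurement without replicates. No difference below could be set against the spread between replicates, and no test was made. In such bulk lists, a change in fewer cells and a smaller change in every cell cannot be told apart. Values of the other 3 lists are given beside those of Cispl for regions that are defined against the same Ctrl list.

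ATAC-seq marks open chromatin by the places where a transposase can insert its adapters. Open chromatin is found at active gene starts, which are often rich in CpG dinucleotides, and at enhancers, which lie mostly in introns or between genes and carry short motifs for transcription factors. Cisplatin binds purine bases and crosslinks them, mostly within a strand, and cells answer with excision repair, crosslink repair and the p53 pathway.

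Among the 18 motifs searched, the steroid receptor element had the most unequal shares in gained and lost regions, and a 16-base repeat word was found mostly in lost regions. The element is the inverted pair of half-sites GNACA and TGTNC with 3 bases between them, bound by receptors of the steroid hormone family. The 4 strongest gained regions that held the element and were less than 50% repeat-masked are shown as the summit base of mm10 (GRCm38) with 50 bases on either side, with the element in capitals. They lie on the plus strand at chr12:4972056-4972156 in an intron of Atad2b, chr6:66991608-66991708 in an intron of Gng12, chr7:97034396-97034496 in an intron of Nars2 and chr5:25753002-25753102 upstream of Actr3b.
Atad2b: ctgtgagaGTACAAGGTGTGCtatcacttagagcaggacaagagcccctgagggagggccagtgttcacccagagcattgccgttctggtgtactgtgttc
Gng12: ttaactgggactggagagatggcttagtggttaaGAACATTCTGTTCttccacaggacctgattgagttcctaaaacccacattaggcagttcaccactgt
Nars2: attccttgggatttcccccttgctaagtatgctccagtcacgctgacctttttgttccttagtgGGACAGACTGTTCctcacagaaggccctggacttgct
Actr3b: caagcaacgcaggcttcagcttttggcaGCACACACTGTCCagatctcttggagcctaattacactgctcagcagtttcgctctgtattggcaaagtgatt
Their pileups in Cispl were 235 at Atad2b, 214 at Gng12, 211 at Nars2 and 242 at Actr3b, and none of the 4 overlapped a region in the Ctrl or IFNγ lists. In the Oxali list the same places held regions with pileups of 95, 173, 158 and 161. The pileup is the number of reads, each extended to a fixed length around its end, that cover the summit, and it was recovered from the deposited fold and p-value.

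The lost regions are shown by 4 that shared the 16-base word, the strongest outside a chromosome that was left out of this choice. The word is printed in capitals, and all 4 regions are in the same orientation. They lie at chr8:86812247-86812347 (minus strand, intron of N4bp1), chr19:12786142-12786242 (minus strand, intron of Zfp91), chr1:93674384-93674484 (plus strand, between genes, nearest Bok) and chr8:3319358-3319458 (minus strand, between genes, nearest A430078G23Rik).
N4bp1: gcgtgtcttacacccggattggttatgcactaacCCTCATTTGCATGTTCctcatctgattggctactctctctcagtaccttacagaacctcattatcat
Zfp91: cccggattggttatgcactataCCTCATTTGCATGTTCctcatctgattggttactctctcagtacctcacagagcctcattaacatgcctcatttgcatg
Bok: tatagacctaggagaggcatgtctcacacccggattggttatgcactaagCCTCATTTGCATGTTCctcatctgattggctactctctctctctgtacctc
A430078G23Rik: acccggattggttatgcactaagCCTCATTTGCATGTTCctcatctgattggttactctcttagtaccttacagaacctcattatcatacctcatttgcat
Their Ctrl pileups were 69 at N4bp1, 67 at Zfp91, 61 at Bok and 55 at A430078G23Rik, each over a background of 12.1. The 4 sequences also share bases on both sides of the word, and 95.1% or more of each region is repeat-masked.

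Gained regions were small and weak beside kept ones. Their median pileup was 46 and their median width 210 bp, against a median width of 524 bp for kept Cispl regions, whose median level of 11.0 times the genome background compared with 3.34 for gained ones. The middle 90% of gained pileups ran from 30 to 156. Of the gained regions, 23.8% lay within 500 bp of a Ctrl region. Lost regions were weaker still, with a median pileup of 36 and a median width of 183 bp. Repeat-masked sequence made up 50% or more of the bases in 17.1% of gained, 14.1% of kept and 33.8% of lost regions. At the q-value limit, the weakest gained region had a −log10 q of 2.001 and a pileup of 36, and the nearest one left out had 1.999 and a pileup of 30.

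The reads of the Cispl list were more numerous. The genome background of a list, which follows its number of reads, was 13.8 in Cispl and 12.1 in Ctrl, or 113% of Ctrl. With the Cispl values scaled to the genome background of Ctrl and, at the same time, both lists admitted at 1 p limit, 60615 regions were gained and 6971 lost. Gained regions made up 90.2% of the changed regions. With equal numbers of the strongest regions from each list, this share was 57.5%, with 23755 gained and 17543 lost. Ranges in parentheses after a share are Wilson intervals at 95%, and they hold counting error alone.

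Gained regions lay away from gene starts. Of them, 4.06% (3.91% to 4.21%) overlapped the 1 kb on either side of a protein-coding gene start, against 11.6% of kept regions (11.4% to 11.8%) and 3.51% of lost regions (3.11% to 3.97%). Introns held 44.0% of gained regions against 36.4% of kept ones, and 45.2% of gained regions lay between genes against 42.1%. The median distance from a gained region to the nearest gene start was 31.8 kb, against 23.0 kb for kept regions. Of the lost regions, 48.4% lay between genes and 40.9% in introns.

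**Figure D1:**
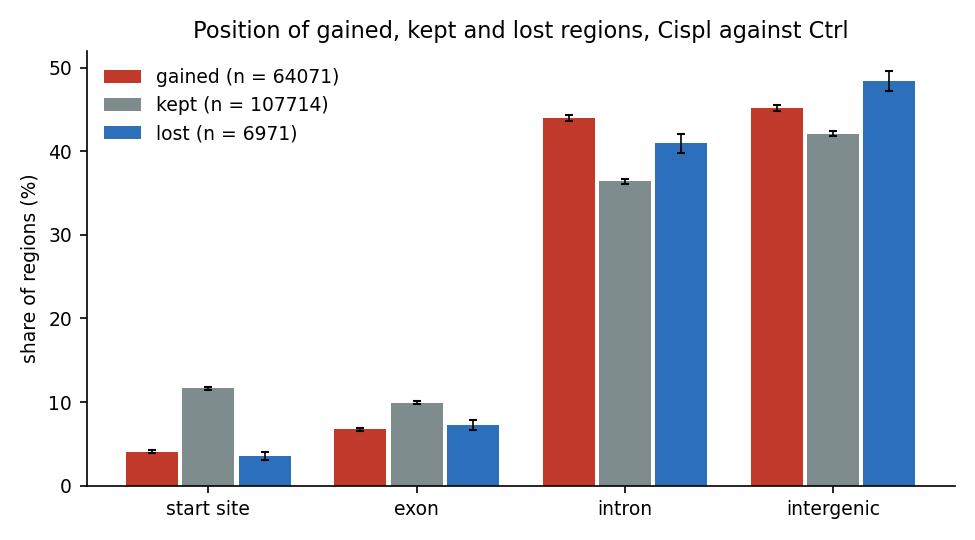
Share of gained, kept and lost regions (y axis, percent) that lay at a gene start, in another exon, in an intron or between genes, with 95% Wilson intervals as error bars. Start sites held 4.06% of the gained and 11.6% of the kept regions, and introns held 44.0% and 36.4%.

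All chromosomes took part. The gained share of strong Cispl regions ran from 34.0% on chromosome 11 to 39.9% on chromosome 1, beside 7.14% on chromosome Y. Over the autosomes, the lost share of strong Ctrl regions ran from 4.66% on chromosome 1 to 7.14% on chromosome 8. Of 2559 bins of 1 Mb with any strong region, 2443 held a gained region, with a median of 24. Of the 1386 bins with at least 50 strong Cispl regions, the median gained share was 36.5% and the highest, 64.2%, was at chr5:14000001-15000000, with 34 of 53 regions.

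The strongest gained region lay 1.6 kb upstream of Ppp1cc, which encodes a catalytic subunit of protein phosphatase 1. Its pileup was 634 in Cispl, over a local background of 115, and no Ctrl region overlapped it at chr5:122156399-122157044. An intron of Pola1, the catalytic subunit of DNA polymerase alpha, held a gained region with a pileup of 278, and the nearest Ctrl region was 45530 bp away. An intron of the lysosomal mannosidase gene Manba held one with a pileup of 293, an intron of the scaffold gene Magi2 one with 273, an intron of Aacs one with 472 and an intron of the thioesterase gene Them4 one with 257. A region 5.26 kb upstream of the epithelial splicing regulator Esrp2 had a pileup of 547 and was 76.9% repeat-masked. These regions stood over backgrounds of 14.3 to 115. A further one of the 10 strongest gained regions, in an exon of Gm10717, had a pileup of 1370 over a local background of 526 and was 100% repeat-masked.

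The strongest lost region lay in an intron of Mboat1, with a pileup of 283 in Ctrl. An intron of Rrm2, a subunit of ribonucleotide reductase, held a lost region with a pileup of 565 and a local background of 202, 325 bp from a Cispl region. The lost region in an intron of the homeobox gene Meis1 reached a pileup of 117 where the background was 12.1. The one nearest Impad1, 103 kb upstream of its start, had a pileup of 122 and was 100% repeat-masked. Those in an exon of Trib1 and at the start of the splicing factor gene U2af2 lay 246 and 89 bp from a Cispl region.

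At gene starts, a gained region was found at 2580 of 21938 protein-coding genes (11.8%) and a lost one at 238 (1.08%). Of the 9893 starts without any Ctrl region, 723 held a strong Cispl region (7.31%), whereas 127 of the 11985 starts with a strong Ctrl region held none in Cispl (1.06%). The strongest gained region at a start was that of Tmed1, a cargo receptor of the secretory pathway, where the pileup was 465 and the local background 120. At Serpinb1b, a protease inhibitor gene, the gained region lay 46 bp upstream of the start with a pileup of 230 in Cispl, 255 in Oxali and 310 in Oxali + IFNγ. At Plac8l1 the pileup of 145 stood over the genome background, and the nearest Ctrl region was 21205 bp away. By contrast, the gained regions at Arid2, Rrp9 and Fbxo24 lay 61, 99 and 91 bp from a Ctrl region. The other 4 were at Fbxl18, Ttc36, Dpf1 and Fam241a, with pileups of 370, 255, 497 and 372.

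All 6 of the strongest lost regions at starts lay close to a Cispl region. The distance ran from 53 bp at Arl8b to 343 bp at Abhd15. Per1, a core gene of the circadian clock, lost a region with a pileup of 550 that lay 55 bp from a Cispl region, and the main region at its start was kept, with pileups of 2616 in Ctrl and 1734 in Cispl. Among starts with no Cispl region at all, chosen after their values were seen, the Ctrl pileup was 193 at Aipl1, 67 at Snap25, a synaptic gene, and 70 at Zfp37. Among the starts that opened, chosen in the same way, were those of Rp1 and Crx, each with a pileup of 110 in Cispl, and no call was made at either in IFNγ.

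Where a region was called once in each list, its level could be compared. The level is the summit pileup over the genome background of its list, and its change is given as log2 of Cispl over Ctrl. Over 96072 such pairs the median change was 0.13, with quartiles of -0.28 and 0.59. Of the 57601 pairs with a pileup of at least 100 in either list and under 50% repeat-masked bases, 7206 were more than 2-fold higher in Cispl (12.5%) and 1371 more than 2-fold lower (2.38%).

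The 10 largest rises were at regions that were weak in Ctrl. In an exon of Wars, the tryptophanyl-tRNA synthetase gene, the pileup went from 27 in Ctrl to 338 in Cispl, a log2 change of 3.47, and this region held a steroid receptor element. At 117 kb downstream of the start of Hpgd, which encodes the enzyme that inactivates prostaglandins, it went from 24 to 277 (log2 3.35). At 88.8 kb from the start of Cct8l1 it went from 22 to 246, in the perilipin gene Plin4 from 24 to 260 and in an intron of Pogz from 26 to 258. In an intron of Cd44, the hyaluronan receptor gene, it went from 30 to 286 (log2 3.07). The other 4 were in Slc37a1, Nectin1 and Pot1a and nearest Slc30a6, a zinc transporter gene, with log2 changes of 3.00 to 3.06. In the IFNγ list these 10 regions had pileups of at most 31 or no call, and in the Oxali list they had pileups of 68 at Pogz to 306 at Plin4.

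Falls were smaller. The largest, 15.3 kb from the start of Kctd12b, went from 287 in Ctrl to 50 in Cispl (log2 -2.70). At 137 kb from the start of Kitl, the ligand gene of the KIT receptor, the pileup went from 120 to 33 (log2 -2.04). In an intron of the aldehyde dehydrogenase gene Aldh3a2 it went from 138 to 38 (log2 -2.04). Upstream of the laminin gene Lama5 it went from 319 to 89, and near Ism1 from 304 to 85. The remaining 5, at Prr16, Clec10a, Osbpl1a, Calcoco2 and the potassium channel gene Kcng2, had log2 changes of -1.97 to -1.81.

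**Figure D2:**
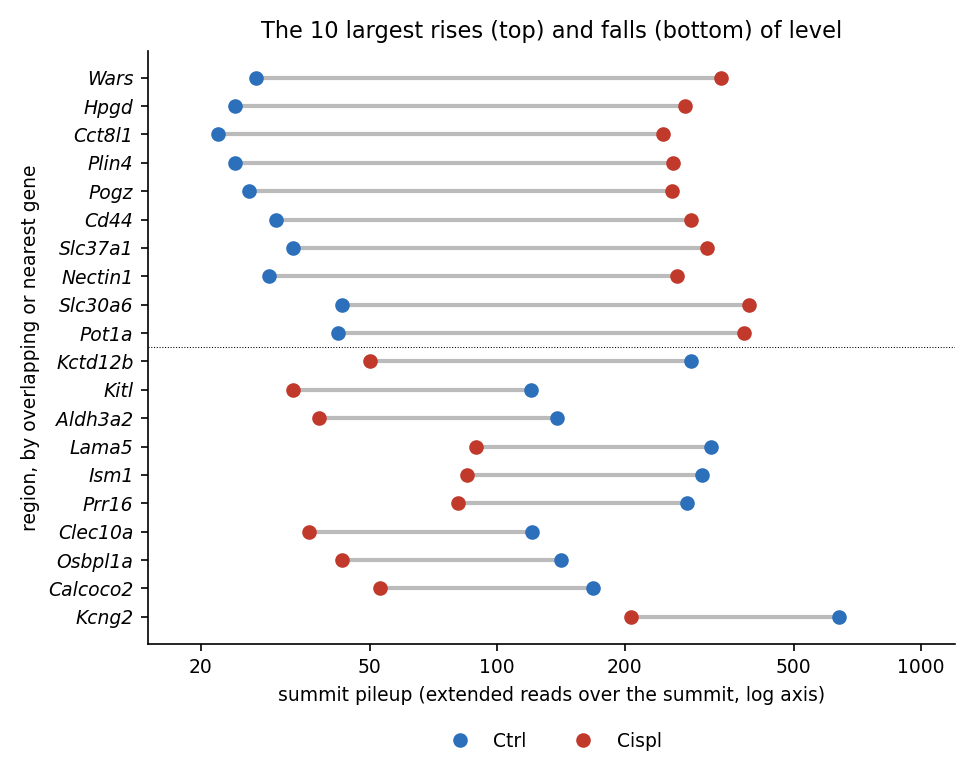
Summit pileup (x axis, log scale) in Ctrl (blue) and Cispl (red) at the 10 regions with the largest rise and the 10 with the largest fall of level, 1 value per pooled list. Rises began at Ctrl pileups of 22 to 43, and falls ended at Cispl pileups of 33 to 207.

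Start sites moved the other way from the rest. Over 10926 start-site pairs the median log2 change was -0.58, with quartiles of -0.80 and -0.21, and 17.5% of them were higher in Cispl. Over the 85146 pairs elsewhere the median was 0.20, and 63.5% were higher. Of the 9908 start-site pairs with a pileup of at least 100, 164 were more than 2-fold higher (1.66%) and 755 more than 2-fold lower (7.62%). The start-site median was below zero on each of the 20 chromosomes that had such pairs, from -0.67 on chromosome X to -0.53 on chromosome 6.

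The change followed the level of the region as well as its place. At levels of 5 or less, both start-site and other regions had a positive median, 0.37 and 0.36. At levels over 50 the median was -0.73 at start sites and -0.51 elsewhere, and at levels of 20 to 50 it was -0.35 and -0.12. In each of the 4 classes above 5, the start-site median was the lower of the pair. CpG content moved with the change too. Start-site pairs with a CpG observed-to-expected ratio above 0.6 had a median of -0.70, and those at 0.2 or below had 0.27. The part of level and CpG content in the start-site difference was not tested.

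**Figure D3:**
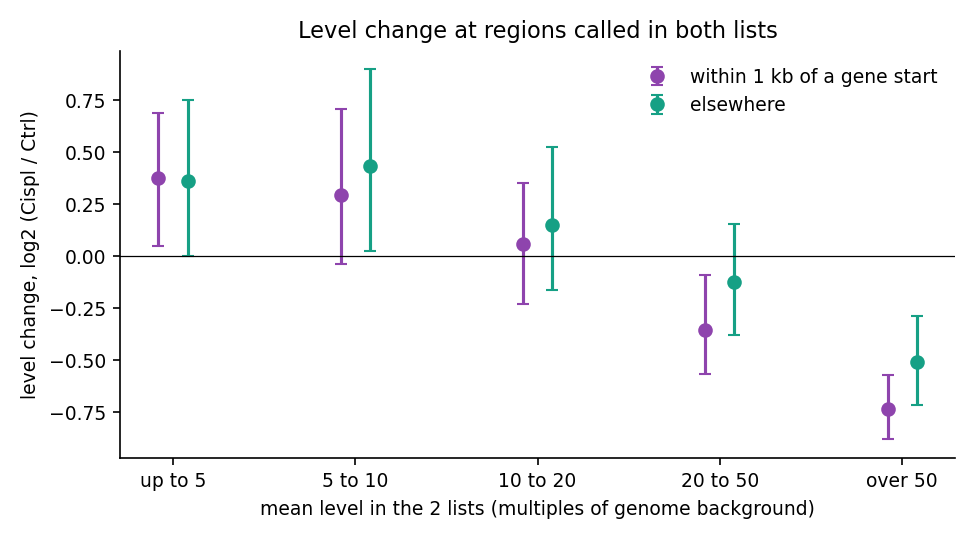
Median level change (y axis, log2 of Cispl over Ctrl, bars from the lower to the upper quartile over regions) by mean level in both lists (x axis, multiples of genome background), at gene starts (purple) and elsewhere (green). Medians fell from 0.37 and 0.36 in the lowest class to -0.73 and -0.51 in the highest.

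Among start-site pairs with a pileup of at least 100, the largest rises, named after their values were seen, were at Cryaa, a lens crystallin gene, from 25 to 194 (log2 2.78), Gm11060 from 21 to 132 and Lcn2, which encodes the iron-carrier protein lipocalin 2, from 59 to 339 (log2 2.34). The summit of the Lcn2 region lay 1 bp from the gene start, a steroid receptor element was within the window searched around it, and its pileup was 52 in IFNγ, 210 in Oxali and 279 in Oxali + IFNγ. The largest falls at starts were at the actin gene Actb, from 2636 to 1017 (log2 -1.55), Mpp7, from 2119 to 847, and Mrpl2, a mitochondrial ribosomal protein gene, from 1003 to 413. Kmt5a, a histone methyltransferase gene, went from 2610 to 1087, and Narf from 3482 to 1482. The pileup at Celsr3 went from 118 to 49.

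Most protein-coding genes had a gained region nearby. Within the gene body and 5 kb, 13521 of 21938 genes held one (61.6%) and 3522 held a lost one (16.1%). Counted by region, 35.9% of the strong Cispl regions in these windows were gained and 5.42% of the strong Ctrl regions were lost, and the gene lists are read against these shares. Windows also differ in how many regions of any kind they hold, so the gained regions per Mb of window are given beside the share, and over all genes there were 33.4. The genes with the most gained regions were long: Gm20388, with a window of 4445 kb, held 264, Fgfr2, with a window of 2971 kb in this annotation, 136, Gm37240 72, the phosphodiesterase gene Pde4d 59, Lpp 51, Camta1 42, Magi2 40 and Magi1 39. Of these 8 genes, 6 had a gained share above the background of 35.9%, from 40.7% in Pde4d to 57.1% in Magi2, a junction scaffold gene, and Gm20388 (28.2%) and Fgfr2 (32.8%) lay below it. Per kb, the densest of the genes with at least 5 gained regions were Gm2310, Sh3bgrl3, Pou5f1, Cryge, Tnf, Lrrc32, Cd79b and Pld6. Tnf, the tumour necrosis factor gene, held 5 gained, 2 kept and 1 lost region, and its start had no region in Ctrl and one in Cispl. Pou5f1, a pluripotency factor, held 6 gained and 2 kept regions.

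The clustered protocadherins, cell adhesion genes whose alternative starts lie in tandem on chromosome 18, had the highest gained share by region of the 37 lists and families, and 40.3 gained regions per Mb of window against 33.4 over all genes, though 0.88 times the value of all genes with windows of 50 kb on either side. In their windows 27 of 41 Cispl regions were gained (65.9%, interval 50.5% to 78.4%) and 0 of 13 Ctrl regions were lost. Any region was called at 8 of 57 starts in Ctrl and at 28 in Cispl, and 20 starts without a Ctrl region held a strong Cispl region. Over all genes, 723 of the 9893 starts without a Ctrl region did so (7.31%). By cluster, starts with a region went from 0 to 4 of 14 in alpha, from 4 to 17 of 22 in beta and from 4 to 7 of 21 in gamma. The 21 gained regions at their starts were weak, with pileups of 33 to 69 and a median of 50, all over the genome background. Pcdhb21 had the highest, 69, followed by Pcdhb4 at 61 and Pcdhb5 at 60. Of these 21 regions, 16 were also called in Oxali, 19 in Oxali + IFNγ and 1 in IFNγ. Among the starts called in both lists, the pileup was 47 in Ctrl and 78 in Cispl at Pcdhb6, 92 and 95 at Pcdhga3, and 98 and 80 at Pcdhgb7.

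Several other families lay above the background of 35.9% by region, but not all did so per Mb, where olfactory receptors held 7.86 gained regions, vomeronasal receptors 5.11, potassium channels 25.7 and collagens 35.9, against 33.4 over all genes. With the stricter q limit of 1e-05, the collagens held 1.00 times the value of all genes, as did the potassium channels with windows of 50 kb on either side. A gained region was near 9.69% of olfactory and 12.1% of vomeronasal receptor genes, beside 61.6% of all genes. The lost shares of olfactory receptors (11.8%), vomeronasal receptors (13.6%) and potassium channels (8.14%) also lay above the background of 5.42%. Olfactory receptors, the odorant receptors of the nose, had 133 regions gained (44.5%, interval 39.0% to 50.1%). Of their 1135 starts, 19 held a region in Ctrl and 9 opened. Over all genes, 723 of the 9893 starts without a Ctrl region opened (7.31%). Vomeronasal receptors had 43 of 96 gained (44.8%, 35.2% to 54.7%). Collagens had 211 of 522 (40.4%, 36.3% to 44.7%) and potassium channels 291 of 724 (40.2%, 36.7% to 43.8%).

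Keratins, AP-1 genes and histones had the lowest gained shares by region of the 37 lists and families, but by gained regions per Mb of window AP-1 genes (41.9) and histones (56.8) lay above all genes (33.4) and only keratins (26.7) below. Keratins had 22 of 119 regions gained (18.5%, 12.5% to 26.4%). The AP-1 and ATF family, stress-responsive transcription factors, had 21 of 108 (19.4%, 13.1% to 27.9%). Its start-site pairs had a median log2 change of -0.89, beside -0.65 over all genes, and the Atf4 start went from 1867 to 1132. Atf7 held 4 gained regions and Atf2 3, and Atf2, Atf4 and Maff each had 1 beside a kept start region. Batf had 2 gained regions at a start without a Ctrl region. Replication-dependent histones, which supply new chromatin in S phase, had 21 gained (20.2%, 13.6% to 28.9%) and 0 of 87 lost. A region was called at 65 of their 67 starts in both lists. Ribosomal protein genes had a gained share of 28.3% (24.2% to 32.9%), below the background, but 51.2 gained regions per Mb, above all genes. Zinc finger genes of the Zfp series lay below on both scales, with 30.4% (28.0% to 32.8%) and 26.1 per Mb.

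**Figure D4:**
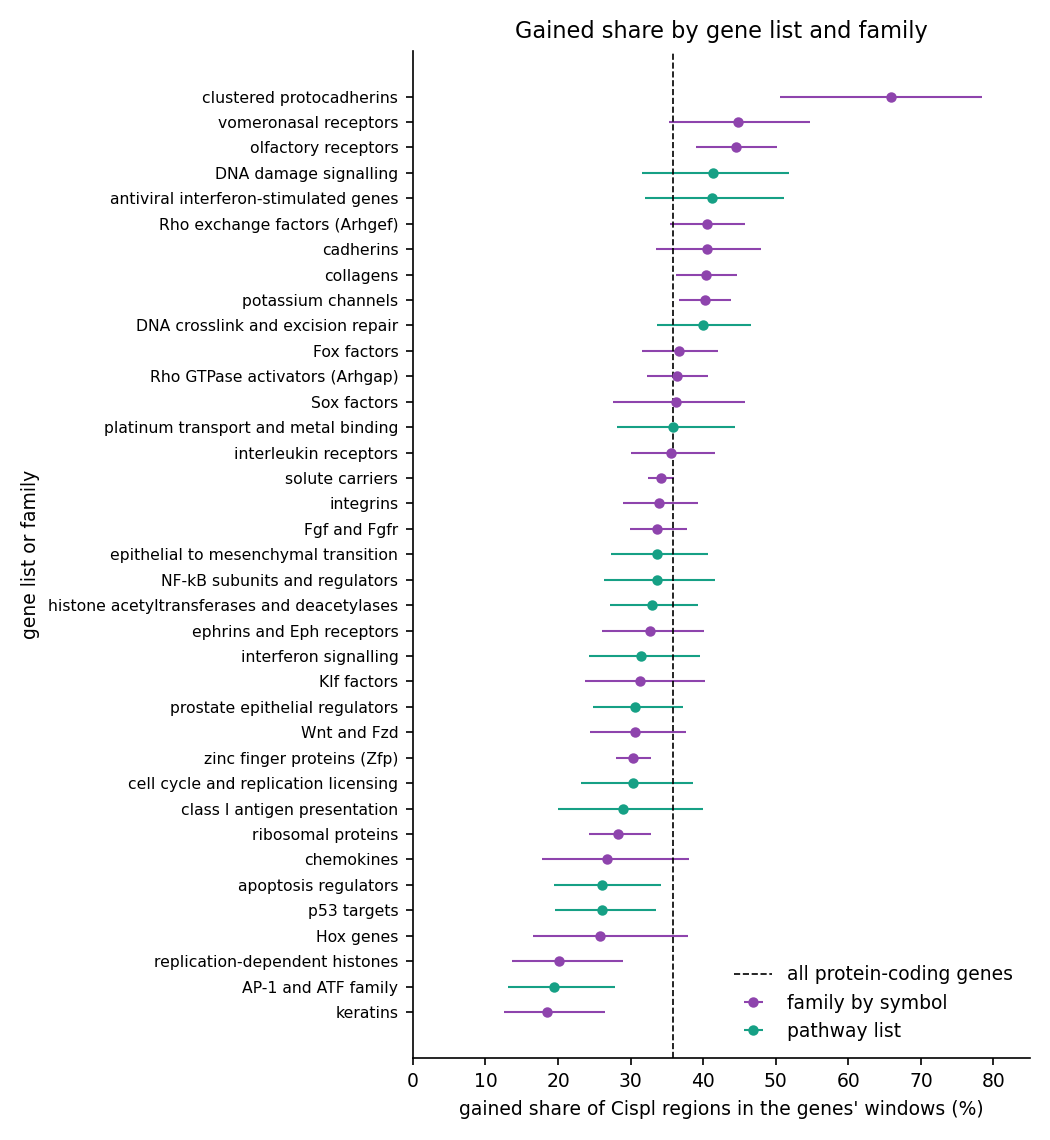
Gained share of the strong Cispl regions in the windows of each gene list (green) or family (purple), x axis in percent, with 95% Wilson intervals, and the share for all protein-coding genes, 35.9%, as a dashed line. The clustered protocadherins lay at 65.9% and the keratins at 18.5%.

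By region, the lists for the response to cisplatin lay on both sides of the background of 35.9%, but per Mb of window all 4 lay above the 33.4 of all genes, with 55.0 gained regions for p53 targets, 48.1 for crosslink and excision repair, 39.4 for DNA damage signalling and 57.7 for platinum transport and metal binding. The p53 targets were thus below the background on one scale, with a gained share of 26.0% (39 of 150, interval 19.6% to 33.6%), and above it on the other. A gained region was near 18 of these 24 genes (75%), beside 61.6% of all protein-coding genes. Cdkn1a, the cell cycle inhibitor p21, had pileups of 1342 in Ctrl and 806 in Cispl at its main region (log2 -0.92). Mdm2, the ubiquitin ligase of p53, went from 1176 to 773 at its start, whereas a region in one of its exons went from 31 to 123 (log2 1.81). Aen, a p53-induced nuclease gene, had 5 gained regions, 1 of them at the start, Ppm1d, a phosphatase gene of the same pathway, had 5 and Pmaip1, a BH3-only gene, had 4. The start of Plk2 held a region in Cispl only.

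Crosslink and excision repair genes had 87 of 218 regions gained (39.9%, 33.6% to 46.5%), in 26 of 30 genes (86.7%, beside 61.6% of all genes). Fancc, a Fanconi anaemia gene, held 12 gained and 2 lost regions, Ercc6, a factor of transcription-coupled repair, 11 and Ddb1, a subunit of a damage-sensing ubiquitin ligase, 7. Gained regions at starts were found at Rev1, Ddb1, Ddb2, Fancg, Fanca and Brca1, among others. The main region at the start had log2 changes from -0.13 at Fancg to -0.91 at Brca1 in these 6. It was lower in all 24 start pairs of the list, and in 9417 of 10719 over all genes. DNA damage signalling genes had 36 of 87 regions gained (41.4%, 31.6% to 51.9%), with 6 each in Chek2, Topbp1 and the kinase gene Prkdc, and gained regions at the starts of Topbp1 and Rnf8.

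For platinum transport and metal binding, 47 of 131 regions were gained (35.9%, 28.2% to 44.4%) and 1 of 90 was lost. Lrrc8d, a subunit of the volume-regulated anion channel, held 13 gained and 13 kept regions. Atp7b, a copper exporter, held 7, 1 of them at the start, and its main start region went from 1788 to 1001 (log2 -1.02). Abcc2, an export pump, held 5 gained regions and none at its start in either list. Slc31a2, a copper transporter gene, and the metallothionein gene Mt1 had a gained region beside their start, and the start of Slc47a1, a drug exporter, held a region in Cispl only.

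Apoptosis regulators had 35 of 134 regions gained (26.1%, 19.4% to 34.1%, 38.7 per Mb) and 1 of 102 lost. Bcl2 held 9 gained regions and Bcl2l11 4, and the start of Bik held a region in Cispl only. Other gained regions at starts were those of Bcl2, Ripk1 and Bad. Cell cycle and licensing genes had 40 of 132 gained (30.3%, 23.1% to 38.6%, 53.2 per Mb), 12 of them in Cdk6, 6 in Ccnd3 and 4 in Cdk1, with 1 at the start of Ccnb1. Histone acetyltransferases and deacetylases had 75 of 228 gained (32.9%, 27.1% to 39.2%). Their 31.2 gained regions per Mb were 0.93 times the value of all genes, but the ratio was 1.10 with windows of 50 kb on either side and 1.09 with the q limit of 1e-05. Hdac4 held 23, Hdac9 12 and Kat6b 8, and Hdac11, Kat8 and Kat2a had 1 at the start. The genes of the epithelial to mesenchymal transition had 64 of 190 gained (33.7%, 27.3% to 40.7%, 42.7 per Mb), with 11 in Smad3, 10 in Zeb2 and 9 in Tgfbr1, each with 1 at the start.

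Antiviral interferon-stimulated genes had 40 of 97 regions gained (41.2%, 32.0% to 51.2%, 66.0 per Mb), in 18 of 21 genes (85.7%, beside 61.6% of all genes). The median log2 change over 14 start-site pairs was 0.10, beside -0.65 over all genes, and 6 of the 14 were lower in Cispl, beside 9417 of 10719. These starts are named after their values were seen. The start of Trim25 went from 1034 to 706 (log2 -0.73), that of Ifit2 from 1143 to 835 (-0.63), that of Eif2ak2 from 1718 to 1387 (-0.49) and that of Adar from 696 to 601 (-0.39). That of Oas3 went from 156 to 430 (log2 1.28), that of Rsad2 from 34 to 78 (1.02), that of Ifit3 from 105 to 222 (0.90), that of Oasl2 from 90 to 155 (0.60), that of Samd9l from 413 to 514 (0.13) and that of Oasl1 from 107 to 127 (0.067). No comparison was made with starts of like level. Over all 21938 genes, 12045 starts held a region in Ctrl and 12634 in Cispl. Within the list, a region was called at 15 of 21 starts in Ctrl and at 18 in Cispl. The 3 new ones were those of Isg15, a ubiquitin-like modifier, Oas1a, a sensor of double-stranded RNA, and Mx1, an antiviral GTPase. At Ifit1, which binds viral RNA, the start region went from 104 to 248 (log2 1.07), and at Uba7, the ISG15-activating enzyme, from 218 to 329 (log2 0.41). The values at Usp18 and Ddx58 were -0.15 and -0.049. Ifit1, Uba7 and Usp18 each had a gained region beside the start as well, and Ddx58 held 5 gained regions, Usp18 4 and Oasl1 4. Oasl1 was the 1 gene of the list with a lost region at its start.

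Interferon signalling genes had 43 of 137 regions gained (31.4%, 24.2% to 39.6%, 48.2 per Mb) and 1 of 95 lost. Irf2 held 6 gained regions, 2 of them at the start, Jak1 held 7 and Ptpn11 4. Ifngr2, the second chain of the IFNγ receptor, held 3 gained regions with pileups of 29, 38 and 59, and the last of these held a steroid receptor element. Its start region had pileups of 140 in Ctrl and 165 in Cispl, a log2 change of 0.06.

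Class I antigen presentation genes had 22 of 76 regions gained (28.9%, 20.0% to 40.0%), in 7 of 17 genes (41.2%, below the 61.6% of all genes). The share by region was below the background of 35.9%, but the gained regions per Mb were 1.53 times those of all genes. Nlrc5, the transactivator of class I genes, held 8 of them, with pileups of 29 to 161, and 11 kept regions. One of its intronic kept regions went from 33 to 122 (log2 1.71) and a region just past its end from 126 to 310 (log2 1.12), while the start went from 89 to 137 (log2 0.44). The shared start region of Psmb9, an immunoproteasome subunit, and Tap1, a peptide transporter, went from 1189 to 769 (log2 -0.81). At Psmb8 and Tap2, the partners of those genes, the 2 kept start regions had log2 changes of 0.11 and -0.17. An intronic region of Tap2 went from 284 to 462 (log2 0.52), and a region past its end from 109 to 303 (log2 1.29). No region was gained in Tap2, and a weak one with a Ctrl pileup of 45 was lost at its start. B2m, the light chain of class I molecules, held 4 gained regions, 1 of them at the start, where the main region went from 1220 to 801. Sec61a1, a channel subunit of the endoplasmic reticulum, held 5, and it and Erap1 had 1 beside their start.

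NF-kB subunits and regulators had 48 of 143 regions gained (33.6%, 26.3% to 41.6%, 62.5 per Mb). Nfkb1, the p105 subunit, held 7 gained regions with pileups of 36 to 106, and 6 of the 7 overlapped no region in the other 3 treated lists. Its intronic kept regions included one that went from 98 to 381 (log2 1.78), while the start went from 555 to 605 (log2 -0.06). Tnip1, an inhibitor of the pathway, held 6 gained regions, and its start went from 72 to 226 (log2 1.47). Nfkbie and Nfkbiz held 4 each, with 1 at the start of Nfkbiz and 1 at that of Traf2.

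Prostate epithelial regulators had 64 of 209 regions gained (30.6%, 24.8% to 37.2%, 55.3 per Mb). Erg held 11 gained regions and Grhl2 7, and Gata3 and Ehf had gained regions at their starts. As a check of the cell type, 6 of 9 epithelial and prostate markers had a region at their start in Ctrl and 5 in Cispl. The start region of Krt8 had pileups of 1078 in Ctrl and 611 in Cispl, that of Hoxb13 1139 and 836, and that of Foxa1 1197 and 1133. Krt18 had only a weak Ctrl region with a pileup of 43, which was lost. Cdh1 had no region at its gene start in either list, although it held 15 kept regions. Of 17 basal, leukocyte, fibroblast and muscle and endothelial markers, 5 had a start region in each list. That of Col1a1 went from 606 to 439, and the other 4 had pileups of 29 to 189. Of 3 neuronal markers 0 had one in Ctrl and 1, Rbfox3, in Cispl.

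Motifs were searched on both strands in the summit base and 100 bases on either side, where a region could hold several, and kept regions were weighted to the GC content and start-site status of the gained or lost regions. The steroid receptor element was in 2128 gained regions, or 3.32% (3.19% to 3.46%), in 2.54% of weighted kept regions and in 26 lost regions, or 0.37% (0.25% to 0.55%). It was in 2.73% of all strong Cispl regions. The ratio of gained to kept was 1.31, and with the letters of the element reversed it was 1.12. The share rose with the strength of the gained region, from 2.34% at a −log10 q of 2 to 5 to 6.24% (5.78% to 6.72%) from 20 upward. Kept regions held it too. Away from gene starts, 2202 pairs with the element had a median log2 change of 0.58 and pairs without it had 0.19. The element was in 6.90% of distal pairs that rose more than 2-fold (6.43% to 7.40%) and in 1.69% to 2.07% of those with a log2 change below 0.5. The largest such rises, after Wars, were in introns of Tmem236, from 41 to 351, and Whrn, from 24 to 193.

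The interferon response element, 2 copies of GAAA with 2 bases between them, was in 2.87% of gained and 2.01% of weighted kept regions (ratio 1.43), but the reversed letters gave 1.24. The NF-kB site had a ratio of 1.12 against 0.85 reversed, the p53 half-site 1.12 against 1.01, and the RUNX site TGTGGTT 1.13 against 1.12. The full p53 site was not searched. Motifs of gene starts and of chromatin loops were scarcer in gained regions. The CTCF site, bound by the insulator protein, was in 1.60% of gained and 6.13% of weighted kept regions (ratio 0.26). The ratio was 0.46 for the GC box GGGCGGG, whose reversed letters are the same, 0.52 for the ETS site CCGGAAG (0.27 and 0.32 for these 2 without the weighting), 0.64 for the CRE TGACGTCA and 0.75 for the AP-1 site TGANTCA, which still lay in 17.0% of gained regions. For the E-box CACGTG, TEAD site GGAATGT, C/EBP site TTGCNNAA, GATA site AGATAAG, forkhead site TGTTTAC, CCAATNNG, the SRF site and the octamer ATGCAAAT the ratios lay between 0.67 and 0.99. Among all strong Cispl regions the shares were 2.28% for the interferon response element, 2.31% for NF-kB, 6.82% for the p53 half-site, 10.2% for RUNX, 4.18% for CTCF, 5.77% for the GC box, 2.09% for ETS, 0.48% for the CRE and 19.8% for AP-1. For the last 8 motifs, in the order named, they were 3.91%, 4.58%, 7.86%, 1.53%, 4.27%, 6.04%, 0.25% and 0.98%.

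**Figure D5:**
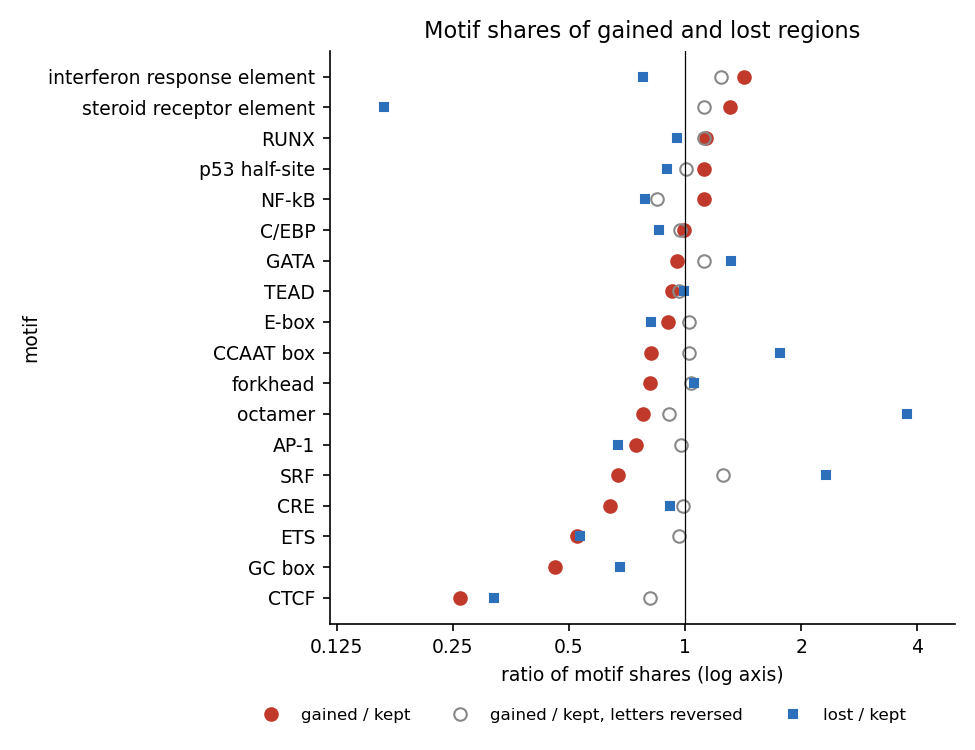
Share of gained (red) or lost (blue) regions with a motif over the weighted share of kept regions, and the gained ratio with reversed letters (open circles), on a log axis where 1 is an equal share. The steroid receptor element lay at 1.31 for gained and 0.17 for lost regions, and the octamer at 3.76 for lost regions.

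CCAATNNG was in 10.9% of lost and 6.16% of weighted kept regions (ratio 1.76), but the reversed letters gave 1.65. The SRF site was in 51 lost regions (0.73%, 0.56% to 0.96%) against 0.32% of weighted kept regions (ratio 2.32), with 1.05 for the reversed letters. The octamer was in 281 of 6971 lost regions (4.03%, 3.59% to 4.52%) against 1.07% of weighted kept regions. Of the 281, 83.3% were at least 50% repeat-masked, and 168 held the 16-base word printed above, which contains the octamer on its other strand. This word was in 168 lost regions (2.41%), in 2 of 64071 gained regions and in 68 kept Cispl regions (0.06%). The 168 lost regions lay on 20 chromosomes and were a median of 100% repeat-masked. The 66 pairs with the word had a median log2 change of -0.58. Below 50% masked bases, the octamer was in 1.02% of lost and 0.96% of kept regions. The 2 other commonest words of lost regions, a repeat-masked word in 264 of them and a run of CA in 175, were also in 3.17% and 2.50% of gained regions.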

How the data were processed

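The members, gene lists and motifs were chosen with earlier results of these data known. Per the study's methods and the submitters' processing notes, the authors trimmed reads with cutadapt, aligned them to mm10 with Bowtie2 2.2.8, filtered them on mapping quality, removed duplicate and mitochondrial reads, pooled the 2 libraries of a group, called peaks with MACS2 2.1.0 without a control library and removed blacklisted peaks. The deposited lists therefore hold no value per library, and no read counts per library were analysed here. The study states a minimum number of usable read pairs per library, and relative depth was read from the genome background of each list.

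The deposited fold is a ratio, pileup plus 1 over local background plus 1. The −log10 p-value was deposited by the authors for each summit, as was its −log10 q-value within the list. The deposited score was not used. From fold and p, the whole-number pileup was solved for 100% of peaks. The Cispl list ends at a −log10 p of 2.99 and at peak number 300000, the Ctrl list at 2.00, so weaker Cispl regions are not analysed here, and a lost region may overlap one of them.

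Summits of 1 interval were counted as 1 region, and 1 bp counted as overlap. Genes and starts came from GENCODE M21 on GRCm38, and 297 of 299 list symbols matched. Named regions were the 10 gained and 6 lost of highest −log10 q, the same at gene starts, the 10 largest rises and falls, the 8 genes with the most gained regions in all and per kb, 3 members of each list with the most gained regions, and every member with a gained or lost region at its start. Psmb9, Tap1, Psmb8, Tap2, Nlrc5, Ifngr2 and Nfkb1 were named because the study names them, and other genes after their values were seen. Some members that the rule names are not reported here. Python 3.11.15 with NumPy 2.4.6 and pandas 2.3.3 was used, and the counting and motif steps were tested on simulated data. Intervals are 95% Wilson intervals.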

Additional observations from a re-analysis of the deposited data

How the results depend on the processing

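No paired analysis was possible because the 2 libraries of each group were pooled before peaks were called, and for the same reason no library could be left out. The gained share of changed regions was 90.2%. It was 88.7% over all deposited regions, 92.9% at a q-value of at most 1e-05, 90.4% when a region within 500 bp counted as overlap, 90.8% when only an overlap of 50% counted, 89.7% with Cispl scaled to the genome background of Ctrl and 1 p limit for both lists, which changes 2 choices together, and 57.5% with equal numbers of regions, which gave 23755 gained and 17543 lost. The counts moved more than this share. With a region within 500 bp counted as overlap, 48816 regions were gained and 5156 lost. When only an overlap of 50% counted, 76306 were gained and 7733 lost. Regions lost numbered 3572 at a q-value of at most 1e-05. Leaving out regions that were 50% or more repeat-masked, which was chosen once the data had been seen, gave 4615 lost regions and a gained share of 92.0%. Judging gains against Ctrl regions above the p limit of the Cispl list, also chosen then, gave 64830 gained.

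The start-site share of gained regions, 4.06%, was 1.57% with 500 bp, 6.87% with 2 kb, 8.38% with any transcript start, 4.45% at a q-value of at most 1e-05 and 4.30% without masked regions, and the kept share was above it at each window and start definition (10.1% with 500 bp and 17.1% with any transcript start). For lost regions, 3.51% became 2.44%, 5.59% and 7.57% in the first 3 and 4.92% without masked regions. Genes with a gained region numbered 2580 when only the start and 1 kb counted. Centring the level change on its median gave 0 over all pairs, -0.71 at start sites and 0.069 elsewhere. Pileup minus local background kept each direction. By gained regions per Mb, 25 of 37 lists lay above all genes, and 24 to 28 did under the alternatives. Without weighting by GC content and start-site status, the gained to kept ratio of the GC box was 0.27 and that of the ETS site 0.32. Replication-dependent histones held 2.75 times the gained regions per Mb of all genes by gene body alone and 1.70 times with 5 kb. The cause of these shifts was not tested.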
